A study of Bos taurus with 8 samples.

Results

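The proteasome is the protease that degrades ubiquitin-tagged proteins in every nucleated cell, and the genes of its subunits were followed here in bovine blood cells given lipopolysaccharide (LPS). Members were the rows of the scRNA-seq tables whose gene name begins with PSM, a letter from A to G and a number. The pattern took 49 of 21861 genes. Of these, 48 encode a subunit, a regulator or an assembly factor, and the remaining one, PSMC3IP, encodes a partner in meiotic recombination that only shares the name. The label was therefore borne out for all but 1 row.

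Blood from 4 Holstein cows, 2 years old and lactating, was pooled and split into 4 parts that received no LPS, or LPS at 2 µg/ml and 37 °C over 2 h, 4 h or 8 h. LPS was added to whole blood, and peripheral blood mononuclear cells (PBMCs) were isolated afterwards. Each part gave 1 scRNA-seq library and 1 scATAC-seq library, so a treatment, its library and its handling cannot be told apart, and the animals cannot be separated. How long the part without LPS was kept is not given in the sources used here. No test between treatments was possible, and every interval below covers counting error only.

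The core particle of the proteasome is a barrel of alpha (PSMA) and beta (PSMB) rings, and PSMB5, PSMB6 and PSMB7 carry its catalytic sites. In lymphoid tissue and after interferon-γ, PSMB8, PSMB9 and PSMB10 are built in at the places of PSMB5, PSMB6 and PSMB7, and PSME1 and PSME2 form a ring that caps the barrel. This form, the immunoproteasome, is known for making peptides that fit MHC class I molecules. The regulatory particle unfolds substrates with its ATPases (PSMC) and holds, deubiquitinates and positions them with its non-ATPase subunits (PSMD). PSME3 and PSME4 are other activators, PSMF1 is an inhibitor of the core particle, and PSMG1 to PSMG4 are chaperones of its assembly.

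Values of the 4 libraries are given in the order no LPS, 2 h, 4 h and 8 h throughout, and ratios to no LPS in the order 2 h, 4 h and 8 h. The cells kept numbered 7821, 9865, 7387 and 3411, with 38503367, 47875879, 40160248 and 16657841 UMIs (unique molecules counted). The 8 h library was the shallowest in total, and 20.5% of its cells had under 1/3 of the library's median UMI count, against 7.01% to 9.28% in the others. Values are UMIs summed over cells and scaled to CPM, the UMIs of a gene out of 1000000, and differences are log2 ratios of CPM with 1 added to each side. The call used is a change of at least 1.5-fold among genes with at least 50 UMIs over both libraries. The 3 comparisons with no LPS share that library, so they are not independent of each other. Pairs of scRNA-seq libraries shared between 8 and 24 barcodes.

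Over all cells, proteasome transcripts stood slightly higher after LPS, most at 4 h. The members summed to 7037, 7522, 8471 and 7809 CPM. The 44 members outside the immunoproteasome list followed the same course, with 5017, 5437, 5913 and 5263 CPM. The 5 immunoproteasome genes gave 2020, 2085, 2558 and 2546 CPM, so that they kept their 4 h level in the 8 h library while the others returned toward the level without LPS. Each sum rests on at least 42414 UMIs. Within the classes gated further on, the immunoproteasome sums at 4 h and 8 h were divided. They were 2547 and 2382 CPM in CD3E-gated cells, and 2507 and 2277 CPM in NCR1-gated cells. MS4A1-gated cells had 2985 and 3354 CPM, and CD14-gated cells 358 and 432 CPM.

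PSMA8 and PSMB11, which encode the testis and thymus forms of core subunits, had between 0 and 1 UMI in each library and were not compared. The other 47 members passed the minimum. The ratio was above 0 for 34, 39 and 37 of them in turn. That is 72.3%, 83.0% and 78.7%, beside 44.9%, 53.3% and 64.7% of all genes compared. These shares depended on the mix of cells described further on. With the class mix of no LPS they were 51.06%, 76.6% and 57.45% of members, beside 33.82%, 43.85% and 56.52% of all genes. At 8 h the members then lay close to all genes. At 4 h the counting interval lay above 0 for 36 of the 47 members and below 0 for 4, beside 3701 and 3115 of the 11028 genes compared.

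Few members reached 1.5-fold. At 2 h 0 were higher and 0 lower, where 3.42% of all genes compared were higher and 6.69% lower. At 4 h 1 member was higher, PSMA2, and 0 were lower, where the shares of all genes were 5.12% and 9.58%. At 8 h 1 member was higher, PSME1, and 0 were lower, where they were 4.95% and 6.95%. A count of 0 or 1 of 47 is near or under those shares, so the calls by themselves do not set the members apart. At 4 h the members ran from −0.20 to 0.73.

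Among the alpha subunits, which form the outer rings and the gate of the barrel, PSMA2 and PSMA6 went opposite ways. PSMA2 had 167, 197, 277 and 211 CPM. Its log2 ratio at 4 h was 0.73 with an interval of 0.69 to 0.77, and it then stood lower at 8 h than at 4 h by 0.39. PSMA6 had 240, 210, 209 and 183 CPM. It was the one alpha subunit below no LPS at all 3 times, at −0.19, −0.20 and −0.39. These values depended on the mix of cells described further on, and the direction at 4 h turned with it. With the class mix of no LPS PSMA6 was at −0.04, 0.10 and −0.16. Within classes it was above no LPS at 4 h, at 0.14 in CD14-gated and 0.12 in CD3E-gated cells. It had 0.14 in MS4A1-gated cells and 0.18 in NCR1-gated cells, the last with an interval that held 0. At 2 h and 8 h CD14-gated cells had 423 and 398 CPM of PSMA6, against 478 without LPS. NCR1-gated cells had 191 and 183 CPM against 151. In CD3E-gated cells all 7 tested alpha subunits, PSMA6 among them, were above 0 at 2 h, and 2 of the 7 at 8 h. In MS4A1-gated cells all 7 were above 0 at both times. The alpha group as a whole had medians of 0.14, 0.34 and 0.12, and 6 of its 7 tested members were above 0 at 4 h.

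The 7 standard beta subunits were all above 0 at 2 h and at 4 h, with medians of 0.14 and 0.28. The 3 catalytic ones moved by small steps. PSMB5, the chymotrypsin-like subunit, had 48.1, 53.1, 58.7 and 47.6 CPM. PSMB6, the caspase-like subunit, had 156, 188, 197 and 167 CPM. PSMB7, the trypsin-like subunit, had 133, 134, 155 and 134 CPM. Each was highest in the 4 h library, and PSMB5 and PSMB7 were back within counting error of no LPS at 8 h.

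The inducible catalytic subunits did not move as a block. PSMB9, the counterpart of PSMB6, had 515, 608, 734 and 661 CPM, a log2 ratio of 0.51 at 4 h with an interval of 0.48 to 0.54. PSMB8, the counterpart of PSMB5, had 816, 789, 917 and 913 CPM, and its largest ratio was 0.17 at 4 h. Its ratio of −0.05 at 2 h turned to 0.04 without the upper limit on genes per cell. PSMB10, the counterpart of PSMB7, had 131, 112, 124 and 148 CPM, below no LPS at 2 h by 0.23 and above it at 8 h by 0.17. Set against their counterparts, the ratios at 4 h differed by −0.12 for PSMB8 and PSMB5, 0.17 for PSMB9 and PSMB6, and −0.29 for PSMB10 and PSMB7. At 8 h all 3 differences were above 0 over all cells, at 0.18, 0.26 and 0.15. Within the classes gated further on they were divided at 8 h. In the same order they were 0.55, 0.61 and −0.31 in CD14-gated cells. CD3E-gated cells had −0.04, 0.16 and 0.06, and MS4A1-gated cells −0.30, 0.14 and −0.14. In NCR1-gated cells PSMB9 and PSMB6 differed by −0.0003 and PSMB10 and PSMB7 by −0.72, and PSMB5 was under the minimum.

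The activator ring gave the clearest course over time. PSME1 had 319, 327, 433 and 488 CPM, with log2 ratios of 0.04, 0.44 and 0.61. PSME2, its partner in the ring, had 238, 249, 351 and 337 CPM, with ratios of 0.06, 0.56 and 0.50. Both were nearly level at 2 h and stood apart from no LPS at 4 h and 8 h by far more than counting error. PSME3, the nuclear activator, had 32.5, 43.1, 46.1 and 40.4 CPM, and was already above no LPS at 2 h by 0.39. PSME4, which caps the barrel in chromatin and in spermatogenesis, had 8.05, 7.44, 8.57 and 9.85 CPM, and its interval left out 0 only at 8 h, with a ratio of 0.26.

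The inhibitor PSMF1 had a peak at 4 h. It had 28.9, 26.5, 42.2 and 28.7 CPM. The ratio was 0.53 against no LPS and 0.65 against 2 h, and at 8 h it was −0.01 with an interval of −0.17 to 0.15. The libraries other than 4 h therefore lay close to each other.

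**Figure D1:**
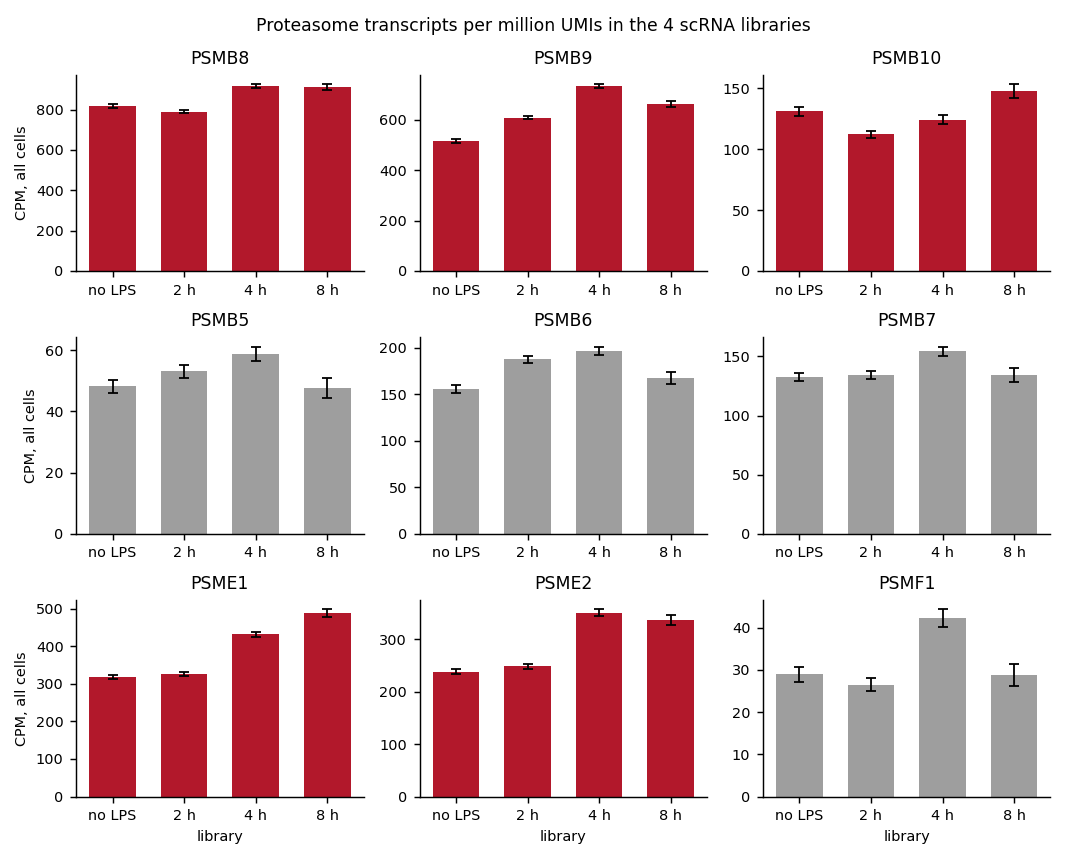
Level of 9 proteasome genes over all cells in the 4 scRNA-seq libraries, in CPM with exact Poisson 95% intervals as bars. Immunoproteasome genes are in red and others in grey, and PSME1 and PSME2 stand above no LPS at 4 h and 8 h while PSMF1 is high in the 4 h library alone.

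In the regulatory particle all 6 ATPases were above 0 at each of the 3 times, with medians of 0.17, 0.24 and 0.07. At 8 h the median of all genes compared was 0.11, and intervals lay above 0 for 2 of the 6 ATPases. PSMC3 changed most among them, with 116, 136, 156 and 118 CPM and a ratio of 0.43 at 4 h. The 14 non-ATPase subunits were more divided, with medians of 0.08, 0.11 and 0.00. PSMD11, a scaffold subunit of the lid, had 105, 143, 156 and 121 CPM, a ratio of 0.45 at 2 h and 0.57 at 4 h. PSMD5, a chaperone of the base that is not part of the finished particle, went down at 2 h, with 19.1, 14.8, 18.7 and 19.5 CPM and a ratio of −0.36.

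Of the assembly chaperones of the core particle, PSMG1 was above no LPS early and PSMG3 stayed near it. PSMG1 had 50.2, 67.7, 65.4 and 54.4 CPM, with ratios of 0.42 at 2 h and 0.37 at 4 h. PSMG3 had 49.6, 46.4, 48.6 and 53.4 CPM, with no ratio further from 0 than 0.10. PSMC3IP, which is no subunit, had 1.99 to 3.48 CPM.

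**Figure D2:**
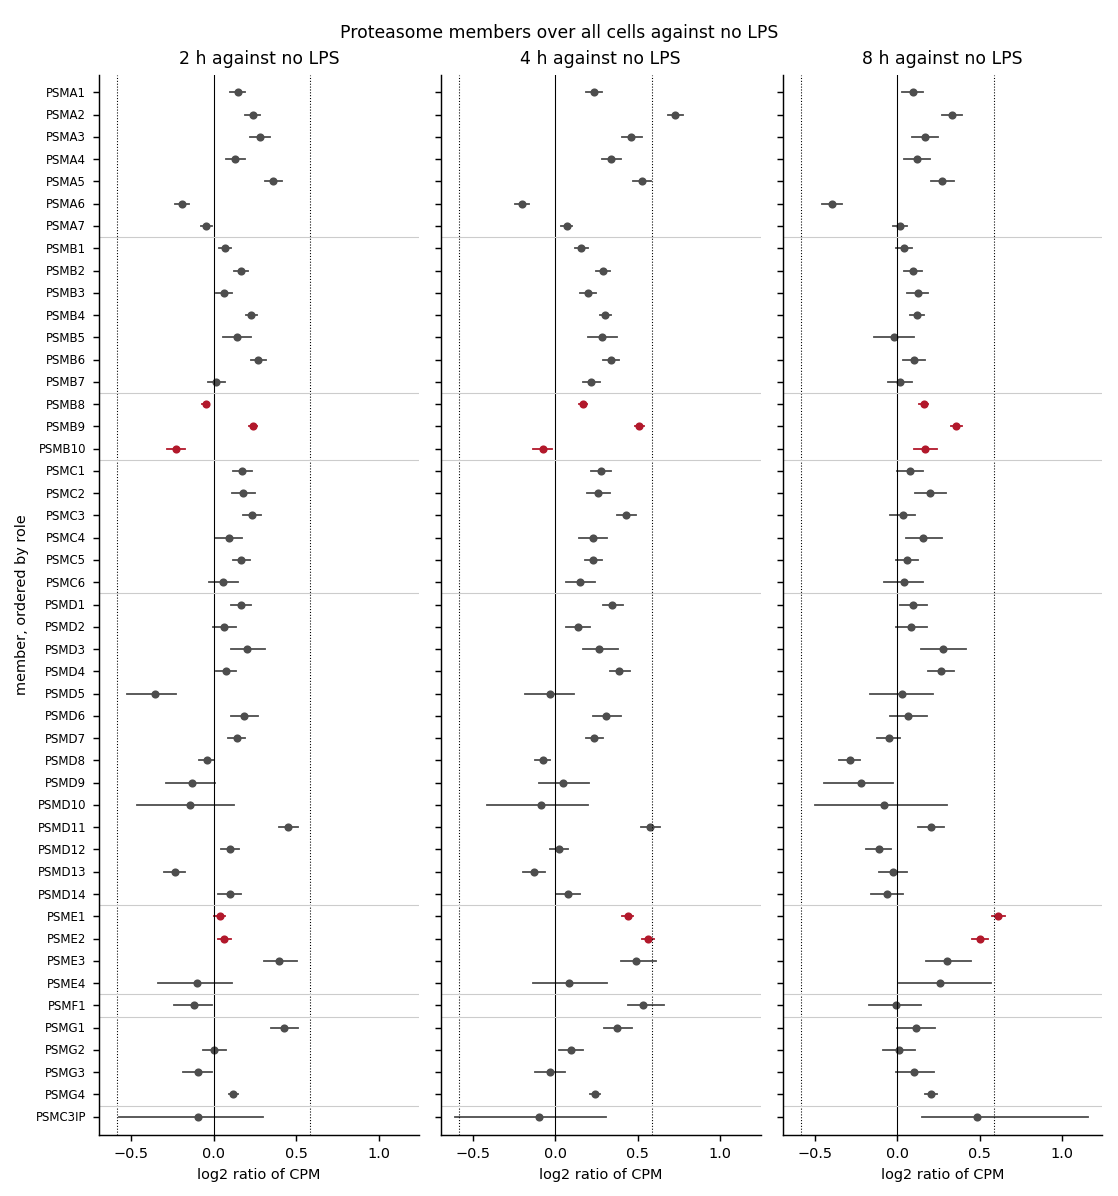
Log2 ratio of CPM to no LPS over all cells for the 47 members with at least 50 UMIs at 2 h, 4 h and 8 h, ordered by role, with exact 95% counting intervals and dotted lines at 1.5-fold. Immunoproteasome genes are in red, PSMA2 at 4 h and PSME1 at 8 h lie past 1.5-fold, and PSMA6 lies below 0 in all 3 panels, although the class mix of no LPS put it at 0.10 at 4 h.

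The list medians put the immunoproteasome genes above the rest late. Their median log2 ratios were 0.04, 0.44 and 0.36. The other members had 0.11, 0.23 and 0.09, and all genes compared had −0.03, 0.03 and 0.11. Scaling by TMM factors or DESeq2 size factors in place of the library total lowered the 8 h medians to 0.23 for the immunoproteasome genes and turned that of the other members to −0.04 and −0.03. With those scalings PSME1 at 8 h had 0.49 and was no longer past 1.5-fold. Without the cells under 1/3 of the median UMI count, PSME1 kept 0.61 and the immunoproteasome median 0.36.

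The mix of cells by marker gene differed between the libraries, and the proteasome genes differed between cell classes. Cells were therefore gated by the UMIs of 1 gene each: at least 2 of CD14, the LPS co-receptor of monocytes, or at least 1 of CD3E (T cells), MS4A1 (B cells) or NCR1 (natural killer cells), with no other gate met. CD14-gated cells numbered 707, 308, 117 and 66, and gave 17.5%, 7.46%, 2.83% and 3.82% of the UMIs. In these sums, fewer cells of a class and less CD14 RNA per cell cannot be told apart. The upper limit on genes per cell also took out 10.8%, 9.9%, 11.4% and 25.8% of CD14-gated cells. It took out 3.4%, 3.2%, 5.4% and 12.2% of MS4A1-gated cells and 2.3% to 3.7% of CD3E-gated cells. CD3E-gated cells numbered 3629, 5003, 3895 and 1641, MS4A1-gated cells 1764, 2436, 1926 and 729, and NCR1-gated cells 63, 99, 90 and 38. Another 277 to 504 cells per library met 2 or more gates and were set aside with the ungated cells, and no doublet caller was run.

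The gates held the markers of their classes. The 9 monocyte markers summed to between 1632 and 2577 CPM in CD14-gated cells and between 152 and 176 CPM in CD3E-gated cells, with CCR2 at 0 in CD14-gated cells of all 4 libraries. The 8 B cell markers summed to 1312 to 1895 CPM in MS4A1-gated cells. In CD3E-gated cells the 8 T cell markers summed to 584 to 666 CPM. In NCR1-gated cells the 10 natural killer markers summed to 2844 to 3172 CPM. CD3E-gated cells also held 162 to 321 CPM of the natural killer markers and 111 to 153 CPM of the B cell markers, mostly BLK. NCR1-gated cells also held 328 to 397 CPM of the T cell markers, mostly LCK, with CD28 at 0 in all 4 libraries, and 270 to 397 CPM of the monocyte markers, with CD163 and CCR2 at 0 in all 4 libraries. The platelet list had 2 of its 4 genes in the tables and the erythroid list 3 of 4, and neither summed to more than 45.6 CPM in any class.

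Giving every library the class mix of no LPS lowered the immunoproteasome course over all cells. The median of the 5 genes became −0.09, 0.24 and 0.18, and that of the other members 0.03 and 0.14 at 2 h and 4 h. PSMB8 then turned to −0.06 at 4 h and −0.03 at 8 h, and PSMB10 to −0.02 at 8 h. PSME2 kept 0.34 and 0.32, PSMB9 0.28 and 0.18, and PSME1 0.24 and 0.44, at 4 h and 8 h. PSMA2 kept 0.59 at 4 h, which is still past 1.5-fold, while PSME1 at 8 h was not.

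The largest contrast in the proteasome genes was between CD14-gated and lymphoid cells. Without LPS the 5 immunoproteasome genes summed to 441 CPM in CD14-gated cells, against 2272 in CD3E-gated, 2904 in MS4A1-gated and 2543 in NCR1-gated cells. The other members summed to 4292, 5129, 5598 and 4454 CPM in the same order. PSMB8 had 118 CPM in CD14-gated and 909 CPM in CD3E-gated cells, a log2 ratio of −2.93 with an interval of −3.05 to −2.84. PSMB9 had 92.5 and 566 CPM, PSMB10 36.1 and 145 CPM, PSME1 135 and 391 CPM, and PSME2 58.4 and 261 CPM. All 5 were lower in CD14-gated cells, with a median log2 ratio of −2.14.

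That comparison has a wide background, since a CD14-gated cell yields a different mix of transcripts. Of the members, 3 were at least 1.5-fold higher and 16 lower in CD14-gated cells, where 19.4% of all genes compared were higher and 57.8% lower. The median of all genes was −0.89, so the other members at −0.30 lay above it and the immunoproteasome genes below it. With TMM factors set across the 4 classes, the other members turned to 0.40, with 14 members higher and 8 lower, and the immunoproteasome genes moved to −1.41, still below 0. The T cell markers gave 12.6 CPM in these CD14-gated cells against 666 CPM in CD3E-gated cells. What RNA from lymphoid cells added to the lower levels was not tested.

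Members outside the immunoproteasome list also differed by class. PSMA6 had 478 CPM in CD14-gated cells against 178 in CD3E-gated, 180 in MS4A1-gated and 151 in NCR1-gated cells, the highest member ratio to CD3E-gated cells at 1.42. PSMD8 and PSMD12, lid subunits, had 314 and 199 CPM in CD14-gated cells against 173 and 110 in CD3E-gated cells. The chaperone PSMG4 went the other way, with 28.2 CPM in CD14-gated cells and 563, 590 and 390 CPM in CD3E-, MS4A1- and NCR1-gated cells, a ratio of −4.27 that was the lowest of all members. PSMB5, whose place PSMB8 takes, had 57.3 CPM in CD14-gated and 38.6 CPM in CD3E-gated cells. Its class difference was opposite in direction to that of PSMB8. PSMB6 and PSMB7 were instead lower in CD14-gated cells, as PSMB9 and PSMB10 were. PSMB6 had 113 against 158 CPM and PSMB7 117 against 139 CPM, with log2 ratios of −0.49 and −0.25.

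**Figure D3:**
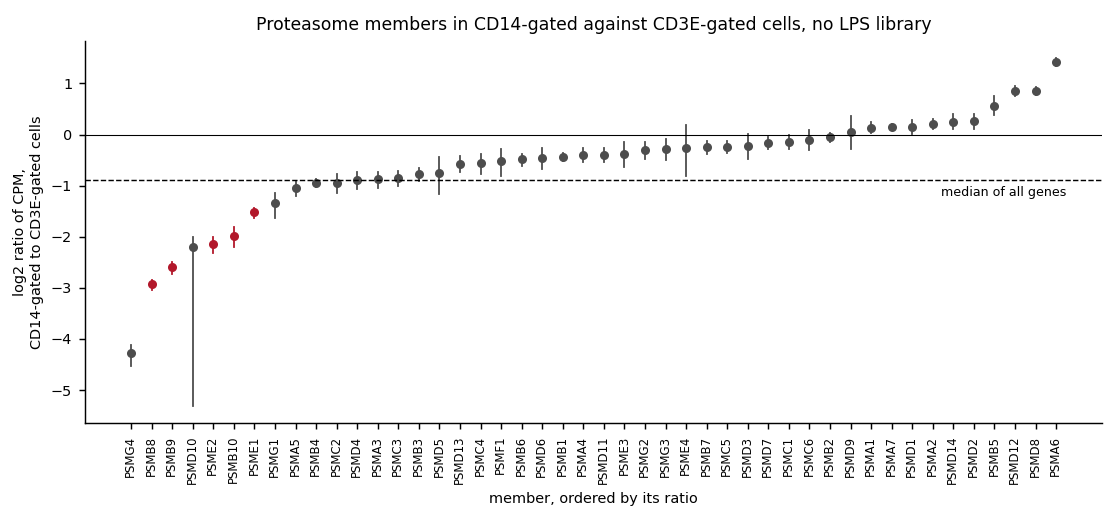
Log2 ratio of CPM in CD14-gated to CD3E-gated cells of the no LPS library for the 46 members compared, with exact 95% counting intervals. The 5 immunoproteasome genes, in red, lie between −2.93 and −1.52, all below the dashed median of all genes at −0.89, and PSMA6 is highest at 1.42.

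Lymphoid classes lay closer together. In MS4A1-gated cells 0 members were 1.5-fold higher and 0 lower than in CD3E-gated cells, where 18.2% of all genes compared were higher and 14.0% lower. The immunoproteasome genes had a median of 0.38 there and the others 0.11, with PSMB8 at 1266 against 909 CPM, PSMB9 at 777 against 566 CPM and PSMB10 at 190 against 145 CPM. PSME1 was the exception of the 5, with 352 against 391 CPM. TMM factors turned the median of the others to −0.01. In NCR1-gated cells 1 member was higher and 4 were lower than in CD3E-gated cells, where 15.5% and 30.7% of all genes were, and the medians were 0.09 and −0.18. The first turned to −0.04 without the upper limit on genes per cell. The counts were 7 higher and 12 lower with lymphoid gates of 2 UMIs, and 1 lower without the gene limit. The lower ones were PSMB4, PSMD3, PSMD6 and PSMD10, which rested on 77, 7, 11 and 1 UMIs in NCR1-gated cells, and only the interval of PSMB4 left out 0. The higher one, PSME4, rested on 5 UMIs in NCR1-gated cells and its interval ran from −0.74 to 2.16.

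**Figure D4:**
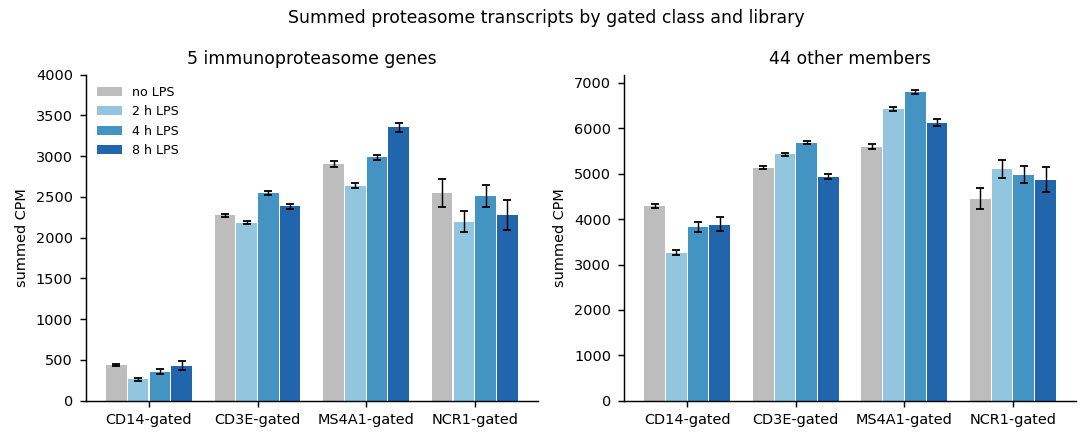
Summed CPM of the 5 immunoproteasome genes and of the 44 other members by gated class and library, with exact Poisson 95% intervals. CD14-gated cells sit between 262 and 441 CPM for the immunoproteasome genes, whereas the lymphoid classes sit between 2185 and 3354 CPM in all 4 libraries.

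Within CD14-gated cells the summed proteasome levels were lowest at 2 h. The immunoproteasome genes summed to 441, 262, 358 and 432 CPM and the others to 4292, 3258, 3826 and 3880 CPM. PSMB8 had 118, 61.1, 118 and 129 CPM, PSMB9 92.5, 52.1, 87.2 and 107 CPM, and PSMB10 36.1, 18.8, 19.4 and 23.6 CPM. The median of all genes in this class was itself −0.54, −0.20 and −0.07. The immunoproteasome genes at −0.82, −0.14 and −0.11 and the other members at −0.53, −0.20 and −0.16 lay near that shift, apart from the immunoproteasome genes at 2 h. That 2 h median was −0.25 without the upper limit on genes per cell, −0.34 with TMM factors and −1.16 with cells weighted equally. At 4 h equal weights gave −0.89. With 66 cells the 8 h direction depended on the gate: the immunoproteasome median was 0.69 with at least 1 CD14 UMI, 0.16 with lymphoid gates of 2 UMIs and 0.61 with cells weighted equally. Equal weights also turned the other members to 0.16. PSMB8 and PSMB9 at 4 h lay within counting error of 0, and TMM scaling put them at 0.10 and 0.01.

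At 4 h 1 member was 1.5-fold higher and 8 were lower in CD14-gated cells, where 11.4% of all genes compared were higher and 25.7% lower. The lower ones numbered 20 with cells weighted equally and 5 without the upper limit on genes per cell. Of the 4 core chaperones, 3 were the lowest of the members, and the other lower ones were PSMA7, PSMB7, PSMB10, PSMD5 and PSME1. PSMG1 had 22.7, 10.7, 9.69 and 11.0 CPM, PSMG2 64.6, 31.1, 30.8 and 47.2 CPM, and PSMG3 42.0, 22.7, 18.5 and 26.7 CPM, with ratios of −1.15, −1.04 and −1.14 at 4 h. PSMG4 did not share this, at 28.2, 19.3, 36.1 and 29.9 CPM. PSMD3, a lid subunit, was the 1 member past 1.5-fold upward, with 29.4, 28.6, 51.1 and 37.7 CPM and a ratio of 0.78, and PSMB4 and PSMG4 followed at 0.31 and 0.35. PSMG1 rested on 11 UMIs at 4 h, and its interval ran from −2.26 to −0.35.

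Other markers moved with the CD14-gated cells. All 4 neutrophil markers were found, and their sum was 12.3, 54.4, 171 and 33.0 CPM, with MGAM at 0 at 8 h. BATF3 alone made the dendritic list large, with 1071 to 1418 CPM, while XCR1 and CLEC9A were at 0 in the 4 libraries. The plasma cell list had 232, 54.4, 17.6 and 56.6 CPM, led by JCHAIN, and between 13.6 and 91.2 CPM in CD3E-gated cells. Their part in the proteasome values of this class was not tested.

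In CD3E-gated cells PSMB8 and PSMB10 stayed near their level without LPS, though at 2 h both intervals lay below 0. The interval of PSMB10 at 4 h and that of PSMB8 at 8 h also lay below 0, and that of PSMB8 at 4 h above it. PSMB8 had 909, 840, 931 and 870 CPM and PSMB10 145, 121, 134 and 148 CPM, with no ratio further from 0 than 0.26. PSMB9 had 566, 605, 692 and 570 CPM, a ratio of 0.29 at 4 h that was gone at 8 h. PSME1 had 391, 372, 459 and 495 CPM and PSME2 261, 247, 332 and 299 CPM, with ratios of 0.23 and 0.35 at 4 h. The immunoproteasome median was −0.08, 0.23 and 0.02 over time, and that of the others 0.08, 0.12 and −0.08.

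At 4 h 1 member was higher and 0 lower in CD3E-gated cells, where 3.44% and 3.61% of all genes compared were. That member was PSMA2, at 148, 176, 230 and 179 CPM and a ratio of 0.63. PSMD11 followed with 113, 139, 157 and 122 CPM and a ratio of 0.47. The lowest ratios were −0.32 for PSMC3IP, −0.14 for PSMD10 and −0.14 for PSMD13, of which only the interval of PSMD13 left out 0.

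In MS4A1-gated cells PSMB8 and PSMB10 parted from their counterparts. PSMB8 had 1266, 994, 1046 and 1194 CPM, while PSMB5 had 56.9, 84.2, 88.7 and 66.1 CPM. The ratio of PSMB8 was −0.35 at 2 h and −0.27 at 4 h, that of PSMB5 0.56 and 0.63, and the difference was −0.91 at both times. PSMB10 had 190, 135, 127 and 179 CPM and PSMB7 136, 146, 170 and 141 CPM, with differences of −0.60 and −0.89. At 2 h and 4 h PSMB8 and PSMB10 were below 0 in all the alternatives run for this class. PSMB9 and PSMB6 were both above no LPS at all 3 times, at 777, 831, 926 and 956 CPM and at 201, 254, 258 and 224 CPM. By 8 h the differences were −0.30 for PSMB8, −0.14 for PSMB10 and 0.14 for PSMB9. At 2 h and 4 h CD3E-gated cells also had differences below 0. They were −0.25 and −0.11 for PSMB8 and −0.30 at both times for PSMB10. In NCR1-gated cells PSMB10 had −0.41 and −0.39, and PSMB5 was under the minimum. CD14-gated cells had 0.31 and 0.21 for PSMB8 and −0.14 and −0.05 for PSMB10.

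Both genes of the activator ring were above no LPS at 4 h and 8 h in MS4A1-gated cells. PSME1 had 352, 351, 451 and 559 CPM and PSME2 320, 326, 434 and 466 CPM. PSME1 thus had a ratio of 0.36 at 4 h and 0.67 at 8 h, with an interval of 0.59 to 0.75 at 8 h. With PSMB8 and PSMB10 below 0 and PSMB9, PSME1 and PSME2 above it, the immunoproteasome median was 0.25 at 4 h, and that of the other members 0.27. The 5 genes summed to 2904, 2637, 2985 and 3354 CPM.

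At 4 h 5 members were higher and 1 lower in MS4A1-gated cells, where 8.21% of all genes compared were higher and 15.5% lower. PSMA2 had 192, 266, 384 and 273 CPM, the largest ratio at 0.99 with an interval of 0.91 to 1.08. PSMF1 had 26.0, 23.9, 48.3 and 29.6 CPM and a ratio of 0.87, and in CD3E-gated cells it was also highest at 4 h, with 32.7, 32.4, 41.1 and 29.6 CPM and a ratio of 0.32. In CD14-gated cells it was highest without LPS, with 22.4, 12.1, 16.7 and 12.6 CPM. PSME3 had 36.4, 60.9, 60.1 and 43.9 CPM and a ratio of 0.71. PSMA5 and PSMB5 were the other 2, at 0.63 each. PSMD10, an ankyrin-repeat chaperone known as gankyrin, was the lower one at −0.59, on 46 UMIs without LPS and 40 at 4 h, and PSMB10 and PSMD13 followed at −0.57 and −0.30.

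Markers moved here too. The B cell list had 1895, 1513, 1312 and 1337 CPM with all 8 markers found, BATF3 had 28.1, 84.3, 126 and 83.0 CPM with XCR1 and CLEC9A at 0, and the plasma cell list had 221, 292, 199 and 101 CPM. The 9 monocyte markers summed to 61.2 to 103 CPM and the 8 T cell markers to 26.2 to 50.9 CPM. Their part in these results was not tested.

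**Figure D5:**
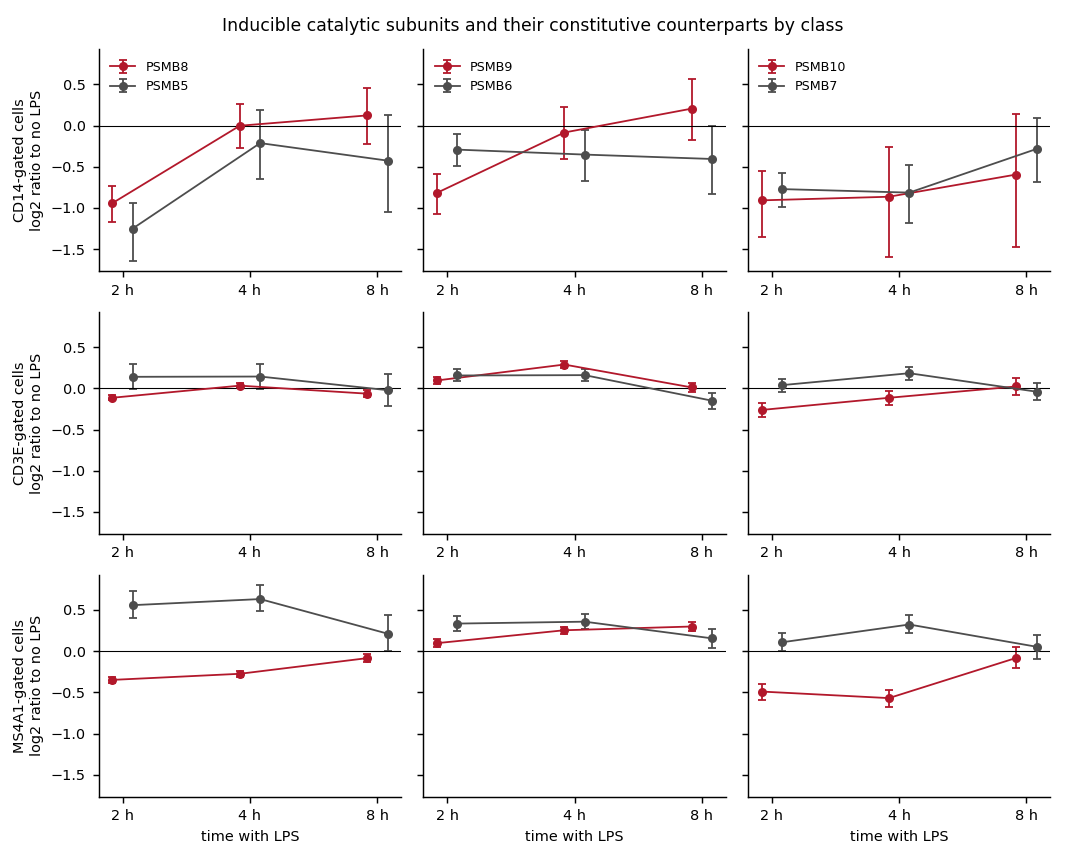
Log2 ratio to no LPS of the 3 inducible catalytic subunits, in red, and their constitutive counterparts, in grey, at 2 h, 4 h and 8 h in CD14-, CD3E- and MS4A1-gated cells, with exact 95% counting intervals. In MS4A1-gated cells PSMB8 and PSMB10 lie below 0 at 2 h and 4 h while PSMB5 and PSMB7 lie above it, and in CD14-gated cells the intervals are wide because few cells were left.

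NCR1-gated cells were few, and 33 members passed the minimum at 4 h. There 2 members were higher and 0 lower, where 11.6% and 7.06% of all genes compared were. PSMA2 was one of them, with 135, 183, 251 and 183 CPM and a ratio of 0.88. PSMD1, a scaffold of the base, was the other at 0.70, but its interval of −0.04 to 1.51 held 0. PSMD11 had a ratio of 0.58, and the lowest were PSMC1, PSMD12 and PSMB10 at −0.37, −0.33 and −0.25, each with an interval that held 0. PSMB8 had 1026, 872, 916 and 800 CPM, and the immunoproteasome median was −0.22, −0.04 and −0.18 over time. At 4 h that median was 0.01 with TMM factors and 0.06 with lymphoid gates of 2 UMIs.

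PSMA2 was thus at least 1.5-fold higher at 4 h in each of the 3 lymphoid classes, and it was not in CD14-gated cells, where it had 172, 121, 137 and 138 CPM. Whether the classes differ in it was not tested, since there was 1 library of each treatment.

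Genes that work with the proteasome were followed as lists over all cells. Of 18 partner genes found, such as the maturation factor POMP, 0 were called in either direction at 4 h, and their median was 0.08. The 5 ubiquitin genes had a median of 0.09. Of 15 genes of MHC class I antigen processing, 3 were higher at 4 h and at 8 h, where 5.12% and 4.95% of all genes compared were, with medians of 0.26 and 0.36 beside 0.03 and 0.11. With the class mix of no LPS the medians were 0.18 and 0.20, and the calls were 0 at 4 h and 1, LAP3, at 8 h. The 3 genes were NLRC5, the transactivator of MHC class I genes, at 2.75, 3.36, 4.68 and 4.98 CPM, THOP1, a peptidase of the cytosol, at 7.53, 10.1, 13.2 and 12.0 CPM, and LAP3, an aminopeptidase, at 90.9, 117, 150 and 158 CPM. TAP1 and TAP2, the peptide transporter, had 265, 338, 386 and 341 CPM and 116, 122, 151 and 154 CPM.

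In the RefSeq annotation of the cattle assembly ARS-UCD2.0, which is not the build of these files and was used for names and order alone, all 49 members were found. PSMB8, TAP1 and PSMB9 follow each other there, with TAP2 beside them, and PSME2 and PSME1 are parted by EMC9 alone, with IRF9 and RNF31 at their other side. PSMA6 lies next to NFKBIA, which encodes an inhibitor of NF-κB. Members that lie together did not all move alike, since over all cells PSMB9 and TAP1 reached 0.51 and 0.54 at 4 h and PSMB8 0.17.

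The scATAC-seq tables hold counts per gene and barcode of transposase cuts in open chromatin, with a rule for assigning them to genes that is not given in the sources used here. Of the members, 41 of 49 are listed in all 4 tables, without PSMA2, PSMA7, PSMA8, PSMB5, PSMB9, PSMC5, PSMD13 and PSMG2. Counts were summed over every barcode listed, 3121, 4172, 3231 and 3163 of them, with no filter for cells. The tables held 975012, 30250143, 26837579 and 11957904 counts, so the levels without LPS are given without a comparison. The no LPS table also shared 228 barcodes with the 2 h table, where the other pairs shared 10 to 31. Since 88.7% to 93.8% of the values were even, intervals were set on the counts divided by 2.

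Between 2 h and 4 h the median log2 ratio of the members was 0.01, and 0 were 1.5-fold higher and 0 lower, where 0.924% of all genes compared were higher and 3.61% lower. Only PSMA5, PSME2 and PSMD9 had an interval that left out 0, at 0.27, 0.11 and −0.31. PSME1 had 268, 456, 465 and 528 CPM, PSME2 167, 162, 174 and 196 CPM, PSMB8 162, 202, 208 and 213 CPM, and PSMB10 55.4, 45.4, 48.5 and 52.1 CPM. None of these 4 immunoproteasome genes was 1.5-fold higher or lower in 4 h against 2 h or in 8 h against 4 h.

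Between 4 h and 8 h the median of the members was 0.10. Of the 41 members 30 were above 0, beside 5734 of the 11447 genes compared. The genes of the partner, ubiquitin and MHC class I lists lay alike, with a median of 0.09 and 26 of 34 above 0. Intervals lay above 0 for 14 members and below it for 2, PSMF1 and PSMD6 at −0.26, beside 2951 and 3250 genes. By fold 0 were higher and 1 was lower, where 1.63% of all genes compared were higher and 11.7% lower. The lower one was PSMF1, with 22.6, 36.9, 38.8 and 24.0 CPM. Its ratio was −0.67 with an interval of −0.97 to −0.42, and −0.68 without the barcodes that another table also holds. When each barcode was counted once per gene, PSMF1 was at −0.53 and no longer past 1.5-fold. PSMF1 RNA was lower at 8 h than at 4 h, by 0.54 over all cells. Between 2 h and 4 h the assays differed. There the RNA ratio over all cells was 0.65, and the scATAC-seq ratio was 0.07 with an interval of −0.10 to 0.25.

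PSMB11 had no UMI in any scRNA-seq library and 49.2, 60.6, 61.7 and 55.6 CPM in scATAC-seq. Its neighbour PSMB5 had RNA in all 4 libraries and no row in the scATAC-seq tables.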

How the data were processed

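For each of 4 scRNA-seq libraries (3′ chemistry) the deposited table holds raw counts of UMIs by gene and barcode, and for each of 4 scATAC-seq libraries counts by gene and barcode, made by the authors with Cell Ranger on ARS-UCD1.2 (bosTau9). No authors' normalization was used. Barcodes were kept as cells if they had 200 to 3000 genes, a minimum of 200 UMIs (as the study's UMI limit was read) and under 20% UMIs of 13 mitochondrial genes. UMIs were summed per library, or per library and gated class, and scaled to CPM. Differences are log2((CPM + 1)/(CPM + 1)), with the exact 95% Clopper-Pearson interval of the plain count ratio, which covers counting error only. UMIs remove PCR copies, whereas the scATAC-seq counts are not known to. The ratio step was checked on simulated counts. With 1 library per treatment no p-value was computed. edgeR 4.0.16 and DESeq2 1.42.0 gave scaling factors only, from the summed counts. Alternatives changed the scaling, pseudocount, minimum count, cell limits, gates, cell weights and class mix. The class mix was added for PSMA6, the MHC class I list and the shares above 0 after the data were seen.

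Members and gene lists were chosen with earlier results of these data known, so no list is independent support. Named genes are the catalytic subunits, PSME1 to PSME4 and PSMF1, the largest rise and fall in each role with at least 200 UMIs, the 3 largest rises and falls per class at 4 h, and scATAC-seq members past 1.5-fold. PSMA5 and PSMB5 in MS4A1-gated cells, PSMA6, PSMD8, PSMD12, PSMG4, PSME4 and the lower members between classes, PSMA5, PSME2, PSMD6 and PSMD9 in scATAC-seq, PSMB11 and the neighbouring genes were named after their values were seen. Of 39 pathway genes 38 were found; DDI2 was not. Promoter and protein sequences were not analysed here. Python 3.11.15, numpy 2.4.6, scipy 1.17.1, pandas 2.3.3 and R 4.3.3 were used.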

Additional observations from a re-analysis of the deposited data

How the results depend on the processing

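Of 346 recomputed summary values, 296 stayed within counting error or, for counts of genes, within 1.5 times, and 50 did not. Of 867 other values 721 stayed, 145 moved, and 1 called value changed sign. That was PSMB10 in CD14-gated cells at 8 h, at 0.18 with cells weighted equally. Called or not, 58 of the recomputed log2 ratios and medians lay on the other side of 0 from the main value. Over all cells, the immunoproteasome median at 2 h was 0.0713 with DESeq2 size factors, 0.0856 without an upper limit on genes, −0.00919 with cells weighted equally and −0.0886 with the class mix of no LPS. At 4 h it was 0.35 and 0.24 with the last 2 settings, and at 8 h 0.21 and 0.18, beside 0.23 with TMM and 0.23 with DESeq2 size factors. The other members had −0.0359 and −0.0346 at 8 h with those scalings, 0.0549 and 0.17 at 2 h and 4 h without a gene limit, and 0.0271 and 0.14 with the fixed class mix. The count of members higher at 8 h was 0 under these 5 settings and 2 with a pseudocount of 0.1, where PSMC3IP joined.

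In CD14-gated cells at 4 h, 2 members were higher with a CD14 gate of 1, with lymphoid gates of 2 or with cells weighted equally. Lower were 5 without a gene limit and 20 with equal weights, where the immunoproteasome median was −0.89. In MS4A1-gated cells at 4 h, 0 members were lower with a CD14 gate of 1, lymphoid gates of 2 or TMM, 3 were higher without a gene limit, and TMM gave medians of 0.39 and 0.41. In NCR1-gated cells at 4 h, 1 was higher and 1 lower with lymphoid gates of 2, and 5 and 4 were higher with TMM and equal weights. Between classes without LPS, NCR1- against CD3E-gated cells gave 7 higher and 12 lower with lymphoid gates of 2 and 1 lower without a gene limit, and MS4A1-gated cells 1 higher without it. For CD14-gated cells the immunoproteasome median was −1.89 without a gene limit, −1.84 with equal weights and −1.41 with TMM, a scaling added after the data were seen, where the others had 0.40 with 14 members higher and 8 lower. TMM gave MS4A1-gated cells 0.26. In scATAC-seq 0 members were lower at 8 h with 1 count per barcode and gene. The other scATAC-seq alternatives, the one without shared barcodes added after the data were seen, changed no call. The causes were not tested, beyond the settings' own construction.

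No paired analysis was possible because each treatment had 1 library per assay, and leaving out a library was not possible for the same reason.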
